A study of Mus musculus with 24 samples.

Results

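The 37 RNAs encoded in the mitochondrial genome were followed in ileum and liver of resected mice, 75% of whose small intestine had been removed by surgery. They were the entries of both deposited expression tables whose gene name begins with mt-, 37 of 40481 genes in each table. They comprised 13 protein-coding genes, each counted as an mRNA here, 2 ribosomal RNAs (rRNAs) and 22 transfer RNAs (tRNAs). All 37 lie on the mitochondrial chromosome in the GENCODE M21 annotation of GRCm38. On the same strand, mt-Atp8 overlaps mt-Atp6 by 43 bases and mt-Nd4l overlaps mt-Nd4 by 7. Whether reads of such a pair came from the same molecule was not assessed, so counts of 13 are counts of genes. C57BL/6 mice of 2 genotypes were used. Villin-Cre mice (Abca1 fl/fl X Villin-Cre) carry Cre under the Villin promoter, which is active in intestinal epithelium and so deletes the floxed cholesterol transporter gene Abca1 there. Floxed mice (Abca1 fl/fl) have the same floxed alleles without Cre. GW3965, an agonist of the liver X receptors, was given by mouth in 2 doses a week at 1 mg/kg/day, suspended in 0.5% carboxymethyl cellulose, over the last 5 of the 10 weeks that followed surgery. The other mice received vehicle. In each tissue the groups were Villin-Cre GW3965, Villin-Cre vehicle, floxed GW3965 and floxed vehicle, with 3 libraries each and 24 libraries in all. Every group had been resected, and the labels used here give no age, no sex and no animal number. The study's title names intestinal activation of the receptor as its subject, and the comparisons below set GW3965 mice of one genotype against its vehicle mice, Villin-Cre against floxed mice that had the same treatment, and examine the difference between the treatment effects of the genotypes.

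Mitochondrial DNA is copied into long transcripts that run around nearly the whole circle from both strands. They are then cut, largely at the tRNAs that sit between the other genes, into mRNAs, rRNAs and tRNAs. All of the mRNAs encode subunits of the respiratory chain or the ATP synthase, which also contain many subunits made from nuclear genes, so that the machines that burn fuel in enterocytes and hepatocytes are built from both genomes. Since several RNAs come from shared precursors, differences in level between them arise also after transcription, through processing and degradation.

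Ileal libraries held 16964577 to 24199269 assigned reads and liver libraries 26431779 to 32284261. Levels are in CPM, the reads of a gene relative to all assigned reads of its library, with 10000 CPM equal to 1% of them. Under GW3965, Abca1, the floxed gene, had 53.8, 53.8 and 54.0 CPM in Villin-Cre GW3965 libraries, against 429, 439 and 252 in floxed GW3965 libraries of the ileum. Under vehicle it had 25.8, 30.7 and 28.5 CPM in Villin-Cre vehicle libraries, against 59.97, 57.5 and 54.3 in floxed vehicle libraries. Its level in Villin-Cre ileum thus lay below that of floxed ileum under the same treatment, with no overlap. It was lower in Villin-Cre livers as well. Under GW3965, liver Abca1 had 383, 379 and 378 CPM in Villin-Cre GW3965 libraries, against 479.8, 468 and 464 in floxed GW3965 libraries, with a log2 fold change of -0.31 and an adjusted p of 6.9e-06 in limma's test. Under vehicle it had 225, 226 and 225 CPM in Villin-Cre vehicle libraries, against 327, 343 and 337 in floxed vehicle libraries, with -0.57 and an adjusted p of 1.7e-08. The hepatocyte gene Alb was at 5.06 to 30.3 CPM in the ileum and 35853 to 58558 CPM in the liver, and the enterocyte gene Sis at 1615 to 5375 CPM in the ileum and at most 0.0626 CPM in the liver. Libraries of a group were close to each other, with a variance between nearest neighbours of 2.58 to 3.45 times that of counting alone, against at least 8.48 times to the nearest library of another group. The exceptions were ileum floxed GW3965 replicate 3, at 9.34 times to its nearest group member, and liver floxed GW3965 replicate 1, at 12.0 times. This measure takes every recovered read as an independent count. Of the nonzero read counts of a library, 55.5 to 58.1% were even, and whether both mates of a pair were counted was not assessed. Nothing in the labels ties libraries to separate animals, so p-values measure the spread between these libraries, which may be technical.

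Mitochondrial mRNAs took 1.89 to 4.37% of the assigned reads of a library, mitochondrial rRNAs 0.0143 to 0.196%, and tRNAs less than 0.001% on average in each group. In the ileum, the 13 mRNAs together made up 3.05 ± 0.242% of reads in Villin-Cre GW3965 libraries, 2.53 ± 0.249% in Villin-Cre vehicle libraries, 2.67 ± 0.358% in floxed GW3965 libraries and 3.996 ± 0.403% in floxed vehicle libraries (mean ± SD, n = 3 each). Every floxed vehicle library of the ileum lay above every library of the other 3 ileal groups. In the liver the corresponding shares were 1.94 ± 0.0753%, 2.13 ± 0.0471%, 2.70 ± 0.504% and 2.13 ± 0.0931%, and the wide spread of the floxed GW3965 livers came from replicate 1, at 2.12% against 2.97 and 3.01% in replicates 2 and 3. Mitochondrial rRNA is normally more abundant than mitochondrial mRNA, but RNase H depletion of rRNA was part of library preparation, so its reads here are what depletion left. The 2 rRNAs together came to 0.836 to 5.19% of the mRNA reads, as group means. The nuclear rRNA rows that escaped depletion (Gm26917, Gm42418 and AY036118) were a larger part of the libraries and moved between groups. They took 5.84 ± 0.741%, 13.8 ± 0.313%, 8.49 ± 1.32% and 11.8 ± 0.507% of ileal reads in the same group order, and 5.24 ± 0.585%, 4.68 ± 0.194%, 6.17 ± 1.74% and 3.10 ± 0.0868% of liver reads.

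**Figure D1:**
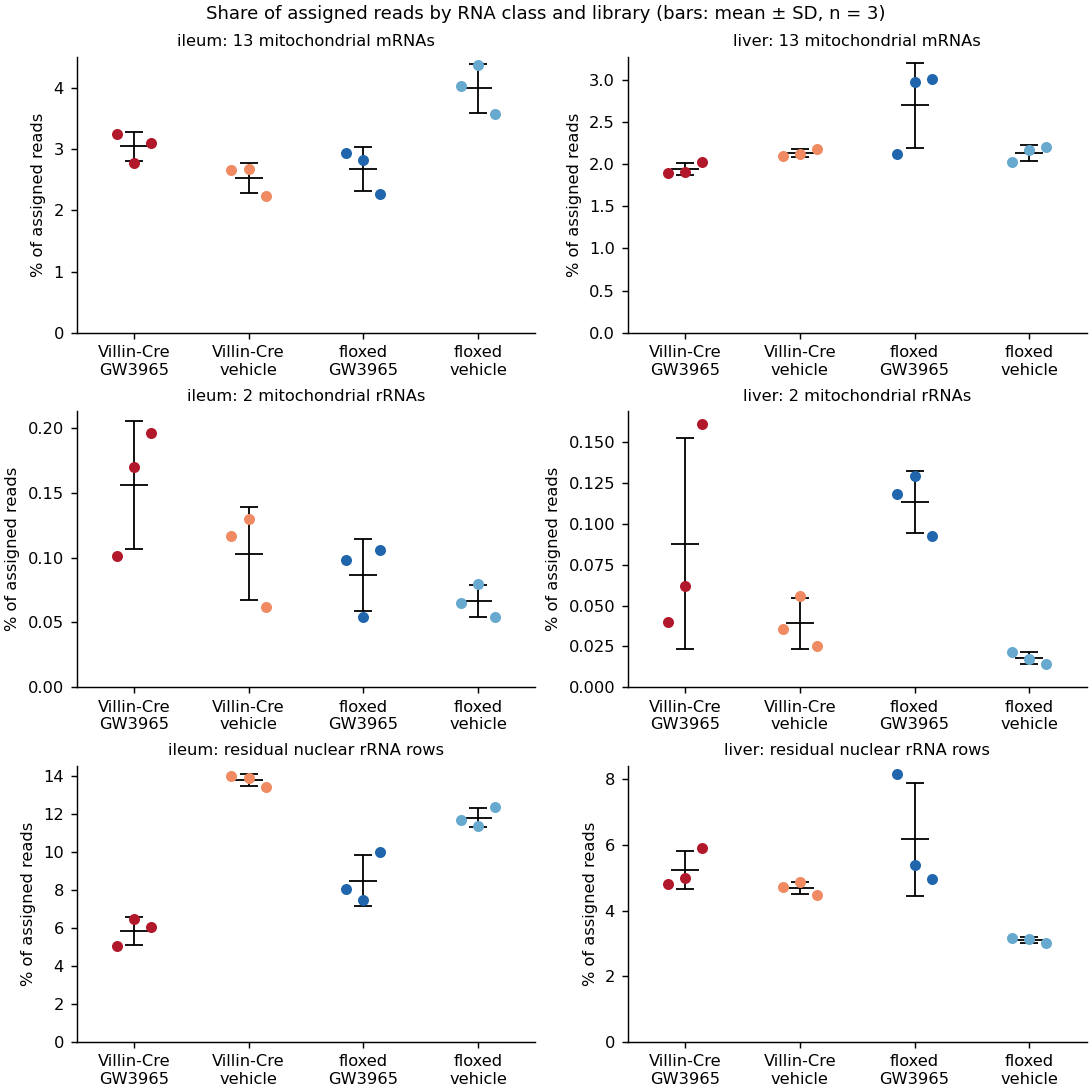
Share of assigned reads (percent) taken by the 13 mitochondrial mRNAs, the 2 mitochondrial rRNAs and the residual nuclear rRNA rows in ileum and liver; points are libraries and bars the mean ± SD of 3. The mRNA share was 3.996 ± 0.403% in floxed vehicle ileum and 2.53 to 3.05% in the other ileal groups.

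Per kilobase of gene length, the mRNA rows spanned more than 2 orders of magnitude. Most of the lowest rows share nearly all their sequence with nuclear copies described below, so this span is uncertain. mt-Nd1, mt-Nd2, mt-Nd5, mt-Nd6 and mt-Cytb share no stretch of 150 bases with an annotated copy. They ran from 1005 (mt-Nd6) to 4857 CPM per kilobase (mt-Cytb) in the ileum. Over the 12 ileal libraries mt-Co1, the catalytic core of complex IV (cytochrome c oxidase), had 8569 ± 1834 CPM per kilobase (SD). It was followed by mt-Cytb, the cytochrome b of complex III, at 4857 ± 1294, and by the complex I (NADH dehydrogenase) subunits mt-Nd1 at 3473 ± 1358 and mt-Nd5 at 2434 ± 455 CPM per kilobase. A middle group held mt-Nd2 at 1252 ± 484, mt-Nd4 at 1189 ± 249 and mt-Nd6 at 1005 ± 248 CPM per kilobase, whose order differed between groups: mt-Nd2 averaged 884, mt-Nd4 1041 and mt-Nd6 929 CPM per kilobase in Villin-Cre GW3965 libraries, against 1987, 1581 and 1331 in floxed vehicle libraries. mt-Nd6 is the only mRNA read from the opposite strand. The small and large ribosomal subunit RNAs, mt-Rnr1 and mt-Rnr2, came next at 458 ± 209 and 375 ± 161 CPM per kilobase. Below them stood mt-Co2 (277 ± 44.5), mt-Atp6 (221 ± 48.9), mt-Nd4l (207 ± 64.8) and mt-Co3 (195 ± 39.7 CPM per kilobase). The lowest mRNAs were mt-Atp8, an ATP synthase subunit, at 67.4 ± 22.9 and mt-Nd3, a complex I subunit, at 30.8 ± 9.29 CPM per kilobase. Neighbours in this order overlapped in their ranges pooled over the 12 libraries, except mt-Co3 and mt-Atp8. These pooled ranges do not compare genes within a library. Within each ileal group, every mt-Co1 value lay above every mt-Cytb value, and every mt-Cytb value above every mt-Nd1 value. In the liver mt-Co1 was again first, at 5222 ± 768 CPM per kilobase, while mt-Nd1 (3257 ± 404) and mt-Cytb (3251 ± 744) differed by less than their spread. mt-Nd5 and mt-Nd2 were closer in the liver, at 1883 ± 356 and 1745 ± 329 CPM per kilobase, and mt-Nd6 was at 550 ± 106. The liver neighbours whose ranges did not overlap were mt-Co1 above mt-Nd1, mt-Cytb above mt-Nd5, mt-Nd4 (1045 ± 224) above mt-Nd6, and mt-Co3 (128 ± 25.3) above mt-Atp8 (40.9 ± 10.2). The tissues were deposited as separate tables, so levels are set side by side here without a test.

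**Figure D2:**
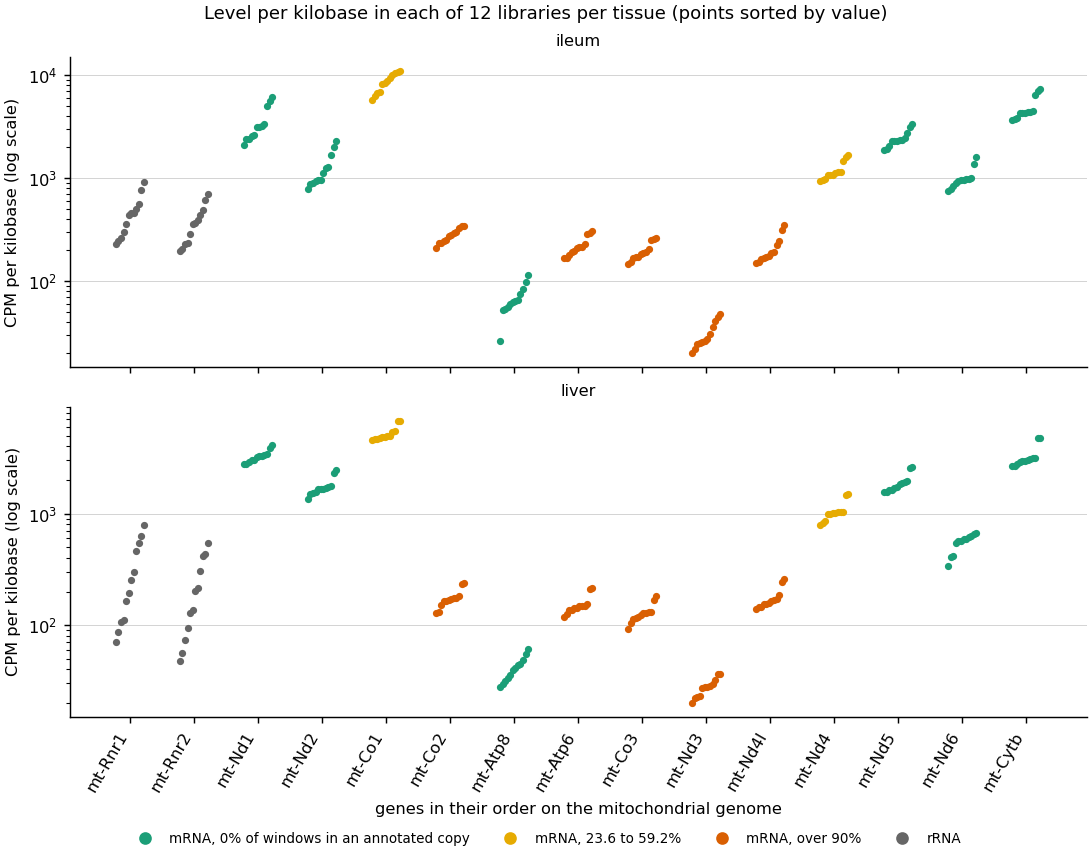
CPM per kilobase of gene (log axis) of the mitochondrial mRNAs and rRNAs in genome order, 1 line of 12 points per gene and tissue with libraries sorted by value; colours give the percent of 150-base windows shared with an annotated nuclear copy. Genes sharing over 90% of their windows averaged at most 277 CPM per kilobase in the ileum, and mt-Co1, which shares 23.6%, at 8569.

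The nuclear genome holds a copy of the stretch of mitochondrial DNA that includes mt-Co2, mt-Atp6, mt-Co3, mt-Nd3 and mt-Nd4l, which were low in this order. The 7 annotated pseudogenes Gm29216, Gm28661, Gm10925, Gm28437, Gm28438, Gm10222 and Gm28439 lie next to each other at chr1:24611535-24616197 on the minus strand of GRCm38. They match the end of mt-Co1, mt-Co2, mt-Atp6, mt-Co3, mt-Nd3, mt-Nd4l and the first 876 bases of mt-Nd4. In transcript sequence, 5 of the 7 are identical to their mitochondrial counterpart over their whole length and 2 have 1 mismatch each: A1066T in Gm29216, counted from the first base of mt-Co1, and T3C in Gm28438, counted from the first base of mt-Nd3. The start of mt-Nd3 and of its copy is printed to show how little there is to tell a read of one from a read of the other, with the differing base in capitals.
mt-Nd3 (chrM:9459-9521, plus strand): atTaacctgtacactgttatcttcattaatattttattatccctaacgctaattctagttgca
Gm28438 (chr1:24613057-24613119, minus strand): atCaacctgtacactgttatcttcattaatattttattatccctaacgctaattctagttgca
Both are from the GENCODE M21 transcripts of GRCm38. The reads were 150 bases long, and of all windows of that length in the gene, a copy holds 99.8% for mt-Co3, 99.4% for mt-Co2 and for mt-Atp6, 98.0% for mt-Nd4l, 97.0% for mt-Nd3, 59.2% for mt-Nd4 and 23.6% for mt-Co1. No window of mt-Nd1, mt-Nd2, mt-Nd5, mt-Nd6, mt-Cytb, mt-Atp8 or either rRNA was in an annotated copy. More diverged copies on other chromosomes match mt-Nd2 (Gm13339, 96.7% identity over 510 bases), mt-Nd5 (Gm4076, 95.2% over 954, and Gm11407, 92.3% over 1058), mt-Cytb (Gm11410, 92.9% over 1142) and mt-Nd6 (Gm11408, 93.6% over 519). Only annotated transcripts were searched. The chromosome 1 block has 233 unannotated bases between the copies of mt-Co2 and mt-Atp6, as many as lie between the matching ends on the mitochondrial genome, where they hold 161 of the 204 bases of mt-Atp8. Their sequence was not used here, so shared sequence of mt-Atp8 was not assessed. The sources used here do not say how reads that map to several places were counted. The copy rows held reads: Gm10925 had a median of 1.64 times the reads of mt-Atp6 over 12 ileal libraries (range 1.42 to 1.87) and 1.65 times in the liver, and Gm28661 had 1.04 times the reads of mt-Co2 in both tissues. Gm28437 had 1.33 and 1.35 times the reads of mt-Co3 in ileum and liver, and Gm28438 had 1.21 and 1.07 times those of mt-Nd3. The ratio was 0.439 and 0.433 for Gm10222 over mt-Nd4l, 0.0669 and 0.0630 for Gm28439 over mt-Nd4, and 0.0273 and 0.0264 for Gm29216 over mt-Co1. Levels of the mRNAs that share windows with a copy, and that of mt-Atp8, are therefore uncertain. With the reads of the copies added to their mitochondrial row, an alternative chosen after seeing the data, the number of mRNAs called differed from that given below by 1 in 2 comparisons (7 in Villin-Cre ileum under GW3965, 12 between the genotypes in GW3965 livers) and was unchanged in the other 8.

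In the floxed ileum, all 13 mitochondrial mRNAs fell under GW3965 in limma's test on log2(CPM + 0.5) with Benjamini-Hochberg adjustment over all 18656 genes tested. Of all genes, 35.5% were called in this comparison, and 20.9% were called lower. The median log2 fold change of the 13 mRNAs was -0.71, against -0.08 over all genes tested. In every one of the 13, all 3 floxed GW3965 libraries lay below all 3 floxed vehicle libraries, as did 26.8% of all genes, while 17.0% lay wholly above. In bulk tissue, fewer cells of a type and less RNA per cell cannot be told apart. When close libraries of a group were averaged to 1 unit, every group but floxed GW3965 was left with 1 unit. The spread in that fit came only from the floxed GW3965 library that stood apart and the average of its other group members. The calls of the mRNAs were lost in it, here and in every comparison below. Such a fit cannot decide whether they hold, and the calls rest on taking the libraries as separate replicates.

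Among the complex I subunits of floxed ileum, mt-Nd1 had 3200.0, 2981 and 2291 CPM in floxed GW3965 libraries, against 5366, 5919 and 4776 in floxed vehicle libraries, a log2 fold change of -0.93 ± 0.12 (SE), adjusted p = 9.2e-06. For mt-Nd2 the values were 1163, 990.3 and 917 CPM in floxed GW3965 libraries, against 2065, 2379 and 1742 in floxed vehicle libraries, with a log2 fold change of -1.01 ± 0.12 (SE), adjusted p = 6.8e-06. For both, the lowest vehicle library stood above the highest GW3965 library. The log2 fold changes were smaller for mt-Nd5 (-0.51 ± 0.10), mt-Nd4 (-0.60 ± 0.08) and mt-Nd6 (-0.59 ± 0.13). mt-Cytb of complex III had 5064, 4931 and 4166 CPM in floxed GW3965 libraries, against 7997, 8472 and 7294 in floxed vehicle libraries and fell by a log2 fold change of -0.75 ± 0.09 (SE), adjusted p = 3.6e-06. Of the complex IV subunits, mt-Co1 had the smallest log2 fold change of all 13, with 13079.5, 12741 and 9640.1 CPM in floxed GW3965 libraries, against 15505, 16947 and 13586 in floxed vehicle libraries and a log2 fold change of -0.38 ± 0.11 (SE), adjusted p = 0.014. mt-Co2 and mt-Co3 had log2 fold changes of -0.50 ± 0.07 and -0.62 ± 0.07. The ATP synthase subunits mt-Atp6 and mt-Atp8 had -0.71 ± 0.09 and -1.11 ± 0.21, and mt-Atp8 rested on few reads, at 12.3, 5.33 and 10.8 CPM in floxed GW3965 libraries, against 23.2, 20.0 and 17.1 in floxed vehicle libraries. The remaining complex I subunits, mt-Nd3 and mt-Nd4l, had log2 fold changes of -0.82 ± 0.16 and -0.91 ± 0.11. Within the floxed GW3965 group, replicate 1 was the highest library for all 13 mRNAs, and without replicate 3, the library that stood apart, or any other single library, 12 or 13 of the 13 were called lower.

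In Villin-Cre ileum the same treatment gave a mixed picture, with 4 mRNAs higher, 2 lower and 7 that did not pass. Of all genes, 52.5% were called in this comparison (21.4% higher, 31.1% lower). The median log2 fold change of the 13 mRNAs was 0.07, against -0.11 over all genes, and 4 of 13 lay wholly above vehicle, as did 25.3% of all genes. mt-Co1 rose, with 16793, 14516 and 16111 CPM in Villin-Cre GW3965 libraries, against 10507, 10553 and 8891 in Villin-Cre vehicle libraries, no overlap and a log2 fold change of 0.66 ± 0.11 (SE), adjusted p = 0.00010. mt-Co2 (0.26 ± 0.07, adjusted p = 0.0063) and mt-Co3 (0.24 ± 0.07, adjusted p = 0.0098) rose as well, so that all 3 mitochondrial subunits of complex IV were called higher. The fourth was mt-Nd4l (0.27 ± 0.11, adjusted p = 0.047). mt-Nd1 and mt-Nd2 were called lower, mt-Nd1 with 2501, 2008 and 2279.8 CPM in Villin-Cre GW3965 libraries, against 3065, 3022 and 2478 in Villin-Cre vehicle libraries and a log2 fold change of -0.33 ± 0.12 (SE), adjusted p = 0.024, mt-Nd2 with -0.37 ± 0.12 and an adjusted p of 0.018. For both, replicate 1 of Villin-Cre GW3965 overlapped replicate 3 of Villin-Cre vehicle, which was the lowest library of its group for all 13 mRNAs. mt-Cytb had 5087, 4382 and 4969 CPM in Villin-Cre GW3965 libraries, against 4942, 5033 and 4346 in Villin-Cre vehicle libraries, groups that overlap, with a log2 fold change of 0.01 ± 0.09 (SE), adjusted p = 0.92. The other 6 that did not pass had log2 fold changes between -0.17 ± 0.16 (mt-Nd3) and 0.20 ± 0.21 (mt-Atp8).

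These smaller changes in Villin-Cre ileum depended on the scaling. Scaling each library by the median of its gene ratios, which puts the middle gene at no change (median over all genes -0.01), called 5 mRNAs higher and none lower, and mt-Nd1 and mt-Nd2 no longer passed (log2 fold changes -0.22 and -0.25, adjusted p 0.11 and 0.081). Leaving the nuclear and mitochondrial rRNA rows out of the read total called 1 mRNA higher (mt-Co1) and 3 lower (mt-Nd1, mt-Nd2 and mt-Nd4). mt-Co1 was called higher under both, and without the filter on low values no mRNA was called. With single libraries left out, 3 to 6 mRNAs were called, that is 3 without Villin-Cre GW3965 replicate 3 or without Villin-Cre vehicle replicate 1 or 2.

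The effect of GW3965 differed between the genotypes for all 13 mRNAs of the ileum. The interaction, the log2 fold change of Villin-Cre mice minus that of floxed mice, was positive in each, from 0.53 ± 0.11 for mt-Nd4 to 1.31 ± 0.30 for mt-Atp8. It passed in 32.9% of all genes, in 14.6% with a positive and in 18.4% with a negative sign. The median interaction of the mRNAs was 0.76, against -0.04 over all genes. mt-Co1 had an interaction of 1.05 ± 0.16 (SE), adjusted p = 8.7e-05, mt-Cytb one of 0.76 ± 0.12 (SE), adjusted p = 0.00014 and mt-Nd1 one of 0.60 ± 0.17 (SE), adjusted p = 0.011. Under the median of gene ratios and with any library left out, 12 or 13 of the 13 were called positive, and 6 without the filter on low values.

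Cell type markers moved with these groups. The 8 enterocyte markers were all called higher under GW3965 in both genotypes (median log2 fold change 1.41 in Villin-Cre and 1.15 in floxed ileum), and their summed level was 29854 to 30401 CPM in Villin-Cre GW3965, 15230 to 15585 in Villin-Cre vehicle, 18616 to 19391 in floxed GW3965 and 11342 to 11531 in floxed vehicle libraries. The 8 smooth muscle markers were all called lower under GW3965, with medians of -2.86 and -1.15, and summed to 877 to 882, 6745 to 7054, 2447 to 3692 and 6347 to 6425 CPM in the same order. Of the 7 T cell markers, all were called lower under GW3965 in Villin-Cre and 3 higher in floxed ileum, and they summed to 33.0 to 40.6, 114 to 124, 59.7 to 65.7 and 41.5 to 42.0 CPM. Of 6 macrophage markers tested, all were called lower in both genotypes, and the 7 listed summed to 112 to 115, 164 to 178, 92.0 to 111 and 222 to 229 CPM. The 7 hepatocyte markers, among them Apoa1 and Apob, which intestine also makes, summed to 18634 to 19206, 6453 to 6555, 9343 to 12849 and 3824 to 4029 CPM. None of these markers was at 0 in a whole tissue. Their part in the mitochondrial differences, and that of the residual rRNA shares given above, was not tested.

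In the floxed liver the direction was the opposite of that in floxed ileum, with 11 of 13 mRNAs called higher under GW3965 and none lower. Of all 17551 genes tested in the liver, 30.0% were called in this comparison and 10.4% were called higher. The median log2 fold change of the mRNAs was 0.45, against -0.04 over all genes. mt-Nd6 changed most, with 308, 350.5 and 338 CPM in floxed GW3965 libraries, against 175, 211 and 217 in floxed vehicle libraries, no overlap and a log2 fold change of 0.73 ± 0.08 (SE), adjusted p = 1.0e-05. mt-Cytb had 3630.2, 5498 and 5496 CPM in floxed GW3965 libraries, against 3306, 3371 and 3389 in floxed vehicle libraries, with a log2 fold change of 0.51 ± 0.12 (SE), adjusted p = 0.0048. mt-Nd2 (0.52 ± 0.10), mt-Nd5 (0.45 ± 0.10) and mt-Nd4 (0.36 ± 0.11) of complex I rose too, as did mt-Nd3 (0.57 ± 0.13) and mt-Nd4l (0.46 ± 0.10). So did mt-Co2 (0.32 ± 0.10), mt-Co3 (0.32 ± 0.10), mt-Atp6 (0.41 ± 0.11) and mt-Atp8 (0.62 ± 0.18). The exceptions were mt-Co1, with 7471, 10407 and 10450.1 CPM in floxed GW3965 libraries, against 7723, 8385 and 8459.8 in floxed vehicle libraries and a log2 fold change of 0.19 ± 0.11 (SE), adjusted p = 0.22, and mt-Nd1, with 2778, 3729 and 3915 CPM in floxed GW3965 libraries, against 2913, 3151 and 3247 in floxed vehicle libraries and one of 0.15 ± 0.10 (SE), adjusted p = 0.30. In both, replicate 1 of the floxed GW3965 group lay below all 3 vehicle libraries while replicates 2 and 3 lay above them.

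Replicate 1 was the lowest floxed GW3965 liver for all 13 mRNAs and was the liver library that stood apart. Without it, all 13 mRNAs were called higher, mt-Cytb with a log2 fold change of 0.71 ± 0.02, mt-Co1 with 0.35 ± 0.03 and mt-Nd1 with 0.30 ± 0.03 (SE). Leaving out any other library gave 7 to 11 calls, with 7 when floxed GW3965 replicate 2 or floxed vehicle replicate 2 was omitted, and a test without the filter on low values gave 4. In all genes, 14.6% had every floxed GW3965 liver above every floxed vehicle liver, as did 9 of the 13 mRNAs.

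In the Villin-Cre liver no mitochondrial mRNA passed limma's test under GW3965, and 4 of 13 had an unadjusted p under 0.05. With voom weights on the recovered reads the count was also 0, with 3 at an unadjusted p under 0.05. The background was 11.9% of all genes called (2.84% higher, 9.04% lower). mt-Cytb had 3051, 3073 and 3208 CPM in Villin-Cre GW3965 libraries, against 3501, 3483 and 3624 in Villin-Cre vehicle libraries, without overlap, and a log2 fold change of -0.19 ± 0.12 (SE), adjusted p = 0.35. mt-Nd5 had 2854, 2854 and 2996 CPM in Villin-Cre GW3965 libraries, against 3420.0, 3471 and 3568 in Villin-Cre vehicle libraries, also without overlap, and -0.27 ± 0.10 (SE), adjusted p = 0.12. mt-Co1, with 7076, 7169 and 7653 CPM in Villin-Cre GW3965 libraries, against 7187, 7297 and 7534 in Villin-Cre vehicle libraries, had groups that overlap and a log2 fold change of -0.01 ± 0.11 (SE), adjusted p = 0.97. The median of the 13 mRNAs was -0.19, against -0.08 over all genes, and 6 of 13 lay wholly below vehicle and none wholly above, against 30.0 and 9.99% of all genes. Since the spread was estimated over all 4 groups, the call depended on floxed GW3965 replicate 1: without it, 7 of the 13 mRNAs were called lower, with unchanged log2 fold changes between -0.19 (mt-Cytb) and -0.30 (mt-Co2), and in a fit of the 2 Villin-Cre groups alone 8 were called lower.

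The difference of the GW3965 effect between genotypes had the opposite sign in liver to that in ileum. It was negative and past the threshold for 10 of 13 mRNAs, against 19.8% of all genes called (10.1% positive, 9.73% negative). The median over the mRNAs was -0.63, against -0.04 over all genes. mt-Nd6 had an interaction of -0.77 ± 0.11 (SE), adjusted p = 0.00026 and mt-Cytb one of -0.70 ± 0.17 (SE), adjusted p = 0.010. The 3 that did not pass were mt-Co1 (-0.20 ± 0.15), mt-Nd1 (-0.35 ± 0.14) and mt-Nd4l (-0.38 ± 0.15), and all 13 passed without floxed GW3965 replicate 1. Without the filter on low values 1 passed. Of the liver markers, the 7 hepatocyte genes summed to 65492 to 67139 CPM in Villin-Cre GW3965, 59471 to 60316 in Villin-Cre vehicle, 62136 to 71060 in floxed GW3965 and 86621 to 88676 CPM in floxed vehicle livers. The 7 macrophage markers summed to 779 to 804, 1111 to 1137, 405 to 609 and 583 to 591 CPM in the same order, and under GW3965 5 were called lower in Villin-Cre and 3 in floxed livers. The smooth muscle markers summed to at most 74.2 CPM and the T cell markers to at most 8.11 CPM in a liver. The 8 enterocyte markers, among them Apoa4, which liver also makes, summed to 3220 to 3478, 3967 to 4078, 407 to 1484 and 1937 to 1999 CPM in the same order. Their part in the mitochondrial differences was not tested.

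**Figure D3:**
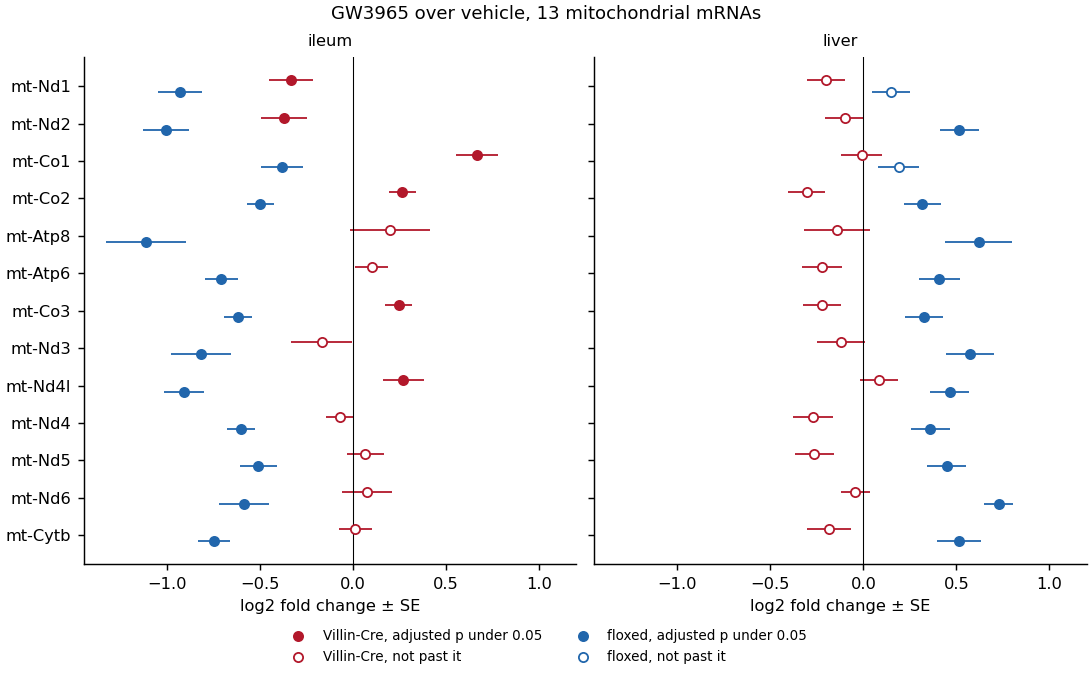
Log2 fold change of GW3965 over vehicle (± SE from limma, 3 libraries a group) for the 13 mitochondrial mRNAs in ileum and liver, Villin-Cre in red and floxed in blue, filled where the adjusted p was under 0.05. In floxed mice all 13 were below 0 in the ileum and all 13 above 0 in the liver, while mt-Co1 in Villin-Cre ileum stood at 0.66.

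Between genotypes, the vehicle ileum differed in all 13 mRNAs, which were lower in Villin-Cre than in floxed mice without overlap. Of all genes, 40.4% were called in this comparison, 9.62% of all being higher and 30.7% lower in Villin-Cre, and 38.3% lay wholly below. The median log2 fold change of the mRNAs was -0.63, against -0.18 over all genes, and with libraries rescaled by the median of gene ratios it was -0.39, with 10 of 13 called lower. mt-Nd1 had 3065, 3022 and 2478 CPM in Villin-Cre vehicle libraries, against 5366, 5919 and 4776 in floxed vehicle libraries, with a log2 fold change of -0.91 ± 0.12 (SE), adjusted p = 1.2e-05. mt-Cytb had a log2 fold change of -0.73 ± 0.09, mt-Co1 -0.62 ± 0.11, mt-Atp6 -0.59 ± 0.09 and mt-Nd6 -0.57 ± 0.13. The same 3 floxed vehicle libraries serve in this comparison and in that of GW3965 in floxed ileum, so the comparisons are not independent.

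Under GW3965, 6 mRNAs were higher in Villin-Cre than in floxed ileum, 1 was lower and 6 did not pass. The background was 51.9% of all genes called (13.5% higher, 38.4% lower). The higher ones were the 3 complex IV subunits mt-Co1 (0.43 ± 0.11), mt-Co2 (0.29 ± 0.07) and mt-Co3 (0.22 ± 0.07), both ATP synthase subunits, mt-Atp6 (0.22 ± 0.09) and mt-Atp8 (0.58 ± 0.21), and mt-Nd4l (0.34 ± 0.11). mt-Co1 had 16793, 14516 and 16111 CPM in Villin-Cre GW3965 libraries, against 13079.5, 12741 and 9640.1 in floxed GW3965 libraries, without overlap and with an adjusted p of 0.0045. mt-Nd1 was lower, with 2501, 2008 and 2279.8 CPM in Villin-Cre GW3965 libraries, against 3200.0, 2981 and 2291 in floxed GW3965 libraries, groups that overlap, and a log2 fold change of -0.31 ± 0.12 (SE), adjusted p = 0.035. The median of the 13 mRNAs was 0.09, against -0.24 over all genes, and 5 of 13 lay wholly above the floxed libraries, as did 15.8% of all genes. Rescaling by the median of gene ratios gave a median of 0.37 over the mRNAs and called 10 higher and none lower, so the lower call of mt-Nd1 depended on the scaling. Without Villin-Cre GW3965 replicate 3 the count was 2, without floxed GW3965 replicate 2 it was 3, and without the filter on low values it was 1.

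In the liver, vehicle-treated Villin-Cre and floxed mice differed in 2 of 13 mRNAs, both higher in Villin-Cre, against 56.8% of all genes called (45.1% higher, 11.7% lower). mt-Nd6 had 294, 307 and 327 CPM in Villin-Cre vehicle libraries, against 175, 211 and 217 in floxed vehicle libraries, without overlap, and a log2 fold change of 0.62 ± 0.08 (SE), adjusted p = 1.0e-05. mt-Nd3 had 11.1, 9.71 and 9.83 CPM in Villin-Cre vehicle libraries, against 7.79, 6.999 and 7.94 in floxed vehicle libraries, also without overlap, and 0.41 ± 0.13 (SE), adjusted p = 0.015. The median of the 13 was 0.06, against 0.26 over all genes, and 4 of 13 lay wholly above and 3 wholly below the floxed libraries, against 52.1 and 15.3% of all genes. Scaled to the median gene, the mRNAs had a median of -0.23, with mt-Nd6 still called higher and 6 called lower (mt-Co1, mt-Co2, mt-Co3, mt-Nd1, mt-Nd4 and mt-Nd4l), so apart from mt-Nd6 the calls of this comparison turned on the scaling. Without floxed GW3965 replicate 1, 7 mRNAs passed, 5 higher and 2 lower, and 1 passed without floxed vehicle replicate 2, without Villin-Cre vehicle replicate 1 or without the filter on low values.

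Under GW3965, 11 of 13 mRNAs were lower in Villin-Cre than in floxed liver and none higher, whereas 40.8% of all genes were called higher and 15.0% lower (55.8% in either direction). The median log2 fold change was -0.54, against 0.20 over all genes. Of the 13, 8 lay wholly below the floxed libraries and none above, against 15.8 and 42.7% of all genes. mt-Cytb had 3051, 3073 and 3208 CPM in Villin-Cre GW3965 libraries, against 3630.2, 5498 and 5496 in floxed GW3965 libraries, with replicate 1 of the floxed group below its other 2 libraries but above every Villin-Cre library, and a log2 fold change of -0.62 ± 0.12 (SE), adjusted p = 0.00044. mt-Nd4 (-0.68 ± 0.11), mt-Co2 (-0.65 ± 0.10), mt-Co3 (-0.63 ± 0.10) and mt-Atp6 (-0.57 ± 0.11) had similar fold changes. mt-Nd6 (-0.15 ± 0.08, adjusted p = 0.13) and mt-Nd3 (-0.29 ± 0.13, adjusted p = 0.075) did not pass. Without floxed GW3965 replicate 1, and also when scaled to the median gene, all 13 were called lower.

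**Figure D4:**
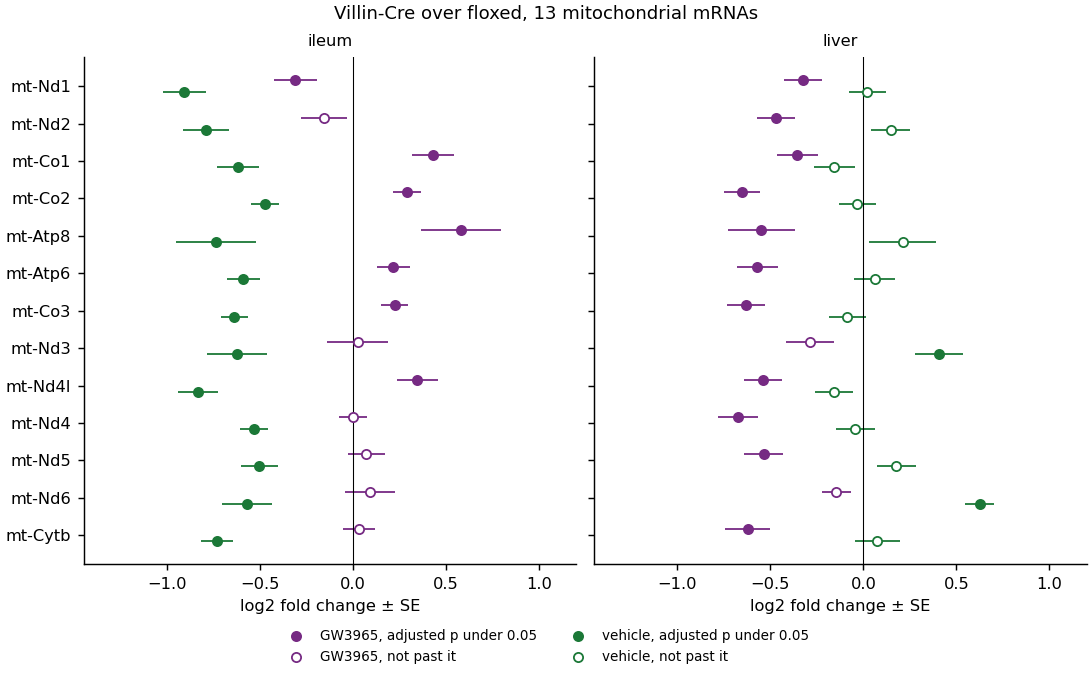
Log2 fold change of Villin-Cre over floxed mice (± SE from limma, 3 libraries a group) for the 13 mitochondrial mRNAs in ileum and liver, under GW3965 in purple and vehicle in green, filled where the adjusted p was under 0.05. All 13 were below 0 under vehicle in the ileum and all 13 below 0 under GW3965 in the liver.

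The mRNAs did not keep a fixed proportion to each other. A ratio between genes of one library does not depend on the read total, and mt-Nd1, mt-Nd2, mt-Nd5 and mt-Cytb share no 150-base window with an annotated nuclear copy, so mt-Co1 and mt-Nd6 were set against the summed reads of these 4. In the ileum mt-Co1 had 1.30 ± 0.0200 reads per read of the 4 in Villin-Cre GW3965 libraries, 0.780 ± 0.00680 in Villin-Cre vehicle, 0.940 ± 0.0447 in floxed GW3965 and 0.731 ± 0.00946 in floxed vehicle libraries (SD, n = 3 each). Every GW3965 library was above every vehicle library of its genotype. The mean log2 difference between GW3965 and vehicle was 0.74 in Villin-Cre and 0.36 in floxed ileum, and 0.55 averaged over the genotypes. An exact two-sided permutation test of treatment within genotype gave p = 0.005, the smallest that its 400 arrangements allow, and 0.01 after Benjamini-Hochberg adjustment over 8 such tests. The ratio tests were not among the planned tests, and they take the libraries as separate replicates. They reuse the libraries whose fold changes, given above, already set mt-Co1 apart in the ileum and mt-Nd6 in floxed livers. Their p-values are therefore no separate support for those differences. mt-Co1 itself shares 23.6% of its windows with a copy. Between genotypes the mean log2 difference was 0.47 under GW3965 and 0.09 under vehicle (exact permutation p = 0.005, adjusted 0.01). Both exact permutation p-values were 0.005 without the ileal library that stood apart, again the smallest that the remaining 200 arrangements allow. In the liver the same ratio was 0.703 ± 0.00535, 0.616 ± 0.00212, 0.635 ± 0.00948 and 0.736 ± 0.00816 in this group order. There it was higher under GW3965 in Villin-Cre mice, by 0.19 on the log2 scale, and lower in floxed mice, at a log2 difference of -0.21, and the test averaged over genotypes did not pass (exact permutation p = 0.685). Between genotypes it did not pass either, at log2 differences of 0.15 under GW3965 and -0.26 under vehicle (exact permutation p = 0.52, adjusted 0.594).

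Among the 4 mRNAs themselves, mt-Nd1 over mt-Nd5 was 0.543, 0.717, 0.708 and 0.948 in the ileum in the order Villin-Cre GW3965, Villin-Cre vehicle, floxed GW3965 and floxed vehicle, as means over 3 libraries. It was 0.945, 0.903, 0.817 and 1.00 in the liver. mt-Nd2 over mt-Nd5 was 0.2204, 0.299, 0.258 and 0.364 in the ileum, again lowest in Villin-Cre GW3965 and highest in floxed vehicle libraries, and 0.562, 0.502, 0.537 and 0.513 in the liver. mt-Cytb over mt-Nd5 was 1.16, 1.202, 1.19 and 1.41 in the ileum and 1.07, 1.01, 1.14 and 1.09 in the liver. These ratios were not tested.

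mt-Nd6 is read from the other strand than the 4 and overlaps the end of mt-Nd5 by 14 bases. The sources used here do not give the strand setting of the counting, so reads antisense to either gene cannot be told apart from its own. mt-Nd6 amounted to 3.97 ± 0.0351% of the reads of the 4 in Villin-Cre GW3965 ileum, 3.58 ± 0.162% in Villin-Cre vehicle, 3.62 ± 0.0869% in floxed GW3965 and 3.26 ± 0.445% in floxed vehicle ileum. The mean log2 difference between GW3965 and vehicle was 0.15 (exact permutation p = 0.015, adjusted 0.024), but without the ileal library that stood apart the exact permutation p was 0.055. Between genotypes it was 0.14 (exact permutation p = 0.025, adjusted 0.0333). In the liver it amounted to 2.89 ± 0.0802%, 2.59 ± 0.0840%, 2.27 ± 0.334% and 1.80 ± 0.129% in the same order. The liver differences were 0.24 on the log2 scale for GW3965 over vehicle and 0.44 for Villin-Cre over floxed mice, each with an exact permutation p of 0.005 (adjusted 0.01), also without the liver library that stood apart.

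**Figure D5:**
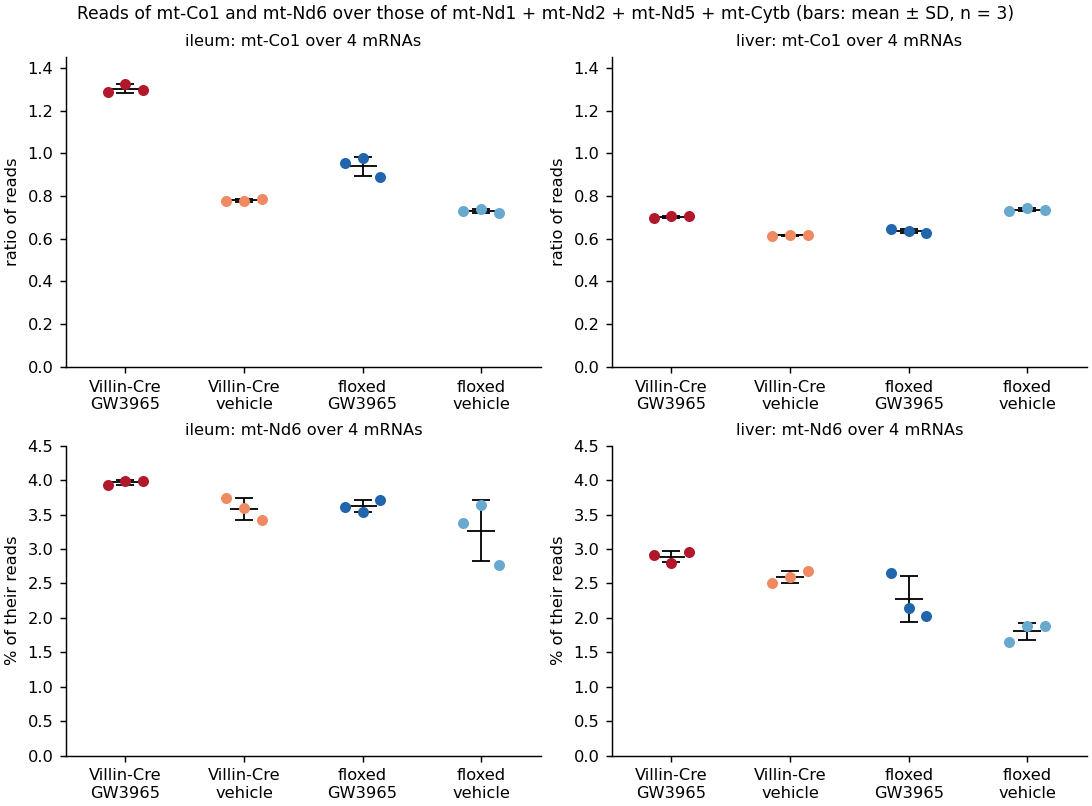
Reads of mt-Co1 per read of mt-Nd1, mt-Nd2, mt-Nd5 and mt-Cytb together, and reads of mt-Nd6 as a percent of the same 4, by library (points) with group mean ± SD (bars), in ileum and liver. mt-Co1 reached 1.30 in Villin-Cre GW3965 ileum against 0.731 to 0.940 in the other ileal groups, and mt-Nd6 was lowest in floxed vehicle liver at 1.80%.

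The 2 rRNAs behaved differently from the mRNAs and varied much more within groups. mt-Rnr1, the RNA of the small mitochondrial ribosomal subunit, had 436, 732 and 866 CPM in Villin-Cre GW3965 libraries, 482, 533 and 251 in Villin-Cre vehicle libraries, 416, 236 and 441 in floxed GW3965 libraries and 287, 343 and 219.8 in floxed vehicle libraries of the ileum. mt-Rnr2, the RNA of the large subunit, had 574, 970.2 and 1099 CPM in Villin-Cre GW3965 libraries, 688, 767 and 371 in Villin-Cre vehicle libraries, 568, 309 and 620.4 in floxed GW3965 libraries and 365, 453 and 325 in floxed vehicle libraries. The within-group SD of mt-Rnr1 was 0.491 on the log2 scale in the ileum and 0.626 in the liver, against medians of 0.0644 over 552 ileal genes and 0.0625 over 1253 liver genes of similar level. Over the 13 mRNAs the within-group SD ran from 0.101 to 0.341 in the ileum and from 0.112 to 0.257 in the liver. Each mRNA also lay above the median of genes of similar level in its tissue. In the ileum, mt-Nd6 had 0.224 against a median of 0.0627, and mt-Cytb 0.124 against 0.122. The 2 rRNAs moved together between libraries, with mt-Rnr1 over mt-Rnr2 at group means of 0.691 to 0.768 for ileum and 0.748 to 0.902 for liver.

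In the ileum mt-Rnr1 was called higher under GW3965 in Villin-Cre mice, with a log2 fold change of 0.70 ± 0.28 (SE), adjusted p = 0.048, although the groups overlap, while mt-Rnr2 had 0.55 ± 0.28 (SE), adjusted p = 0.11. Neither passed in floxed ileum, where the log2 fold changes were 0.33 ± 0.28 and 0.34 ± 0.28. Both were higher in Villin-Cre than in floxed ileum under GW3965, at 0.89 ± 0.28 for mt-Rnr1 (adjusted p = 0.014) and 0.83 ± 0.28 for mt-Rnr2 (adjusted p = 0.019). In vehicle ileum the log2 fold changes of 0.53 ± 0.28 for mt-Rnr1 and 0.62 ± 0.28 for mt-Rnr2 did not pass (adjusted p = 0.16 and 0.086), but scaled to the median gene both did (adjusted p = 0.049 and 0.026).

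In the liver mt-Rnr1 had 187, 284 and 763 CPM in Villin-Cre GW3965 libraries, 156, 241 and 106 in Villin-Cre vehicle libraries, 522, 606 and 439 in floxed GW3965 libraries and 101, 82.1 and 67.8 in floxed vehicle libraries. mt-Rnr2 had 215, 338 and 853 CPM in Villin-Cre GW3965 libraries, 202, 317 and 149 in Villin-Cre vehicle libraries, 665, 690.5 and 488 in floxed GW3965 libraries and 115, 88.4 and 75.3 in floxed vehicle libraries. In floxed livers both were called higher under GW3965, with log2 fold changes of 2.64 ± 0.39 (SE), adjusted p = 0.00016, and 2.72 ± 0.38 (SE), adjusted p = 0.00010, and every GW3965 library was above every vehicle library. In Villin-Cre livers the log2 fold changes of 1.11 ± 0.39 and 0.90 ± 0.38 did not pass (adjusted p = 0.082 and 0.15), but both did without floxed GW3965 replicate 1 (adjusted p 0.0012 and 0.0065). Between genotypes, mt-Rnr2 was higher in Villin-Cre than in floxed vehicle livers (1.21 ± 0.38 (SE), adjusted p = 0.015), a call lost when scaled to the median gene (0.92, adjusted p = 0.068). With close libraries averaged, the calls of mt-Rnr1 and mt-Rnr2 under GW3965 in floxed livers were the only ones of rRNAs and tRNAs kept. In that fit the spread came from the floxed GW3965 group alone, so it cannot decide whether the other calls hold.

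One of the residual nuclear rRNA rows moved with these values in the liver, and within the groups of the ileum as well. The liver values come first. Gm42418 was at 7999, 12177 and 24100.5 CPM in Villin-Cre GW3965 libraries, 4587, 7301 and 3345 in Villin-Cre vehicle libraries, 25951, 17834 and 12300.4 in floxed GW3965 libraries and 3662, 2476 and 2047 in floxed vehicle libraries, and its log2 fold change under GW3965 was 1.46 ± 0.38 in Villin-Cre livers (adjusted p = 0.023) and 2.75 ± 0.38 in floxed livers (adjusted p = 8.5e-05). As with the 2 mitochondrial rRNAs, its highest Villin-Cre GW3965 liver was replicate 3. In the ileum Gm42418 was at 9984, 22548 and 20847 CPM in Villin-Cre GW3965 libraries and 24420.5, 23417 and 12374 in Villin-Cre vehicle libraries. Floxed GW3965 libraries had 14516, 7228 and 20548 CPM and floxed vehicle libraries 8272, 9481 and 7082. In each ileal group its lowest library was also that of both mitochondrial rRNAs. Its log2 fold change passed between genotypes under vehicle (1.22 ± 0.34), but not under GW3965 (0.37 ± 0.34) or for GW3965 in either genotype. Gm26917, the largest of these rows, had log2 fold changes under GW3965 of -0.16 in Villin-Cre livers and 0.57 in floxed livers (limma adjusted p = 0.55 and 0.0088). In the ileum it fell under GW3965, unlike the mitochondrial rRNAs. The log2 fold changes were -1.54 in Villin-Cre and -0.64 in floxed ileum (limma adjusted p = 1.3e-09 and 9.3e-05). Between genotypes of the ileum it had -0.80 under GW3965 and 0.10 under vehicle (limma adjusted p = 5.0e-06 and 0.46). Depletion of rRNA and the level of rRNA in the tissue cannot be told apart in these libraries, so the mitochondrial rRNA values are given without a statement about rRNA content.

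The 22 tRNA genes, 59 to 75 bases long and so shorter than a read of 150 bases, gathered very few reads. All 22 together had 1590 reads over the 12 ileal libraries and 2188 over the 12 liver libraries. mt-Tp alone, the tRNA for proline, held 88.7 and 89.1% of them, and with mt-Tn (asparagine) and mt-Tc (cysteine) the share was 97.4 and 97.0%. These 3 are among the 8 tRNA genes on the minus strand, and their sequences are printed because nearly all tRNA reads of the tables fell on them.
mt-Tp (chrM:15356-15422, minus strand): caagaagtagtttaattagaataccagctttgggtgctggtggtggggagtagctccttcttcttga
mt-Tn (chrM:5089-5159, minus strand): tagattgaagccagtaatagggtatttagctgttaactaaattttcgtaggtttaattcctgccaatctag
mt-Tc (chrM:5192-5257, minus strand): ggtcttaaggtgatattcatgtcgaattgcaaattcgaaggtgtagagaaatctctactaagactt
They are given as in the GENCODE M21 transcripts of GRCm38, without the CCA end that is added after transcription, and no base is marked. The other 19 tRNA genes shared 41 reads in the ileum and 66 in the liver, at most 11 and 13 for any one gene, and in each tissue 5 genes had no read in any of the 12 libraries. mt-Tv, the valine tRNA that lies between the 2 rRNAs, had 0 reads in all 24 libraries, which allows up to 0.00512 CPM from 3 reads over all libraries, for counting error only.

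Only mt-Tp in both tissues and mt-Tn in the ileum passed the filter on low values. In the ileum mt-Tp had 7.71, 6.90 and 6.45 CPM in Villin-Cre GW3965 libraries, 6.08, 6.21 and 3.29 in Villin-Cre vehicle libraries, 4.53, 3.46 and 4.76 in floxed GW3965 libraries and 6.93, 8.78 and 5.69 in floxed vehicle libraries. It was called lower under GW3965 in floxed ileum, at a log2 fold change of -0.68 ± 0.22 (SE), adjusted p = 0.022, and had 0.45 ± 0.22 in Villin-Cre ileum (adjusted p = 0.095, but 0.039 when scaled to the median gene). The difference between these effects was 1.12 ± 0.31 (SE), adjusted p = 0.0095. In the liver mt-Tp had 4.14, 4.34 and 4.11 CPM in Villin-Cre GW3965 libraries, 6.45, 8.30 and 9.61 in Villin-Cre vehicle libraries, 5.33, 4.94 and 8.71 in floxed GW3965 libraries and 2.57, 3.94 and 4.60 in floxed vehicle libraries. There it was called higher under GW3965 in floxed livers (0.69 ± 0.22, adjusted p = 0.027) and lower in Villin-Cre livers (-0.86 ± 0.22, adjusted p = 0.020), with an interaction of -1.55 ± 0.31 (SE), adjusted p = 0.0029. Between genotypes mt-Tp was higher in Villin-Cre than in floxed ileum under GW3965, at 0.67 ± 0.22 (SE), adjusted p = 0.016, and than in floxed liver under vehicle, at 1.05 ± 0.22 (SE), adjusted p = 0.00087. The mt-Tp calls were lost with close libraries averaged, a fit that cannot decide whether they hold. Against the same 4 mRNAs as above (mt-Nd1, mt-Nd2, mt-Nd5 and mt-Cytb), mt-Tp had 0.580, 0.399, 0.345 and 0.337 reads per 1000 reads in the 4 ileal groups and 0.404, 0.680, 0.428 and 0.331 in the 4 liver groups, in the group order above. A read of 150 bases that counts for mt-Tp reaches beyond the gene, and which transcript it came from cannot be told here. mt-Tn, at 0.142 to 0.804 CPM in the ileum, passed in none of the 5 ileal comparisons, and none of them had an unadjusted p under 0.05. In the liver, where it did not pass the filter and was not tested, it had 0.144 to 0.279 CPM in Villin-Cre GW3965, 0.344 to 0.677 in Villin-Cre vehicle, 0.265 to 0.320 in floxed GW3965 and 0.238 to 0.329 in floxed vehicle libraries, with Villin-Cre vehicle wholly above the other groups.

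The nuclear genes for the same machines were read next, as 74 subunits of complexes I to V. In floxed ileum 68 of 74 were called lower under GW3965 and none higher, with a median log2 fold change of -0.51, against 20.9% of all genes called lower. Each complex took part: 31 of 36 in complex I, 3 of 4 in complex II, 9 of 9 in complex III, 10 of 10 in complex IV and 15 of 15 in the ATP synthase (complex V). Among them were Ndufv2 of complex I (-0.72 ± 0.07, adjusted p = 5.8e-07), Uqcrc2 of complex III (-0.57 ± 0.05), Cox6b1 of complex IV (-0.61 ± 0.07) and Atp5g1, a membrane ring subunit of the ATP synthase (-0.89 ± 0.07), all as log2 fold changes. Complex II, which contains no mitochondrially encoded subunit, had a median of -0.46, and 3 of its 4 genes were among those called.

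In Villin-Cre ileum 33 of the 74 nuclear genes were called higher under GW3965 and 5 lower, with a median of 0.18, against 21.4 and 31.1% of all genes. Scaled to the median gene, 45 were higher and 2 lower. Uqcrb of complex III (0.72 ± 0.07), Ndufb3 of complex I (0.80 ± 0.11), Atp5o of the ATP synthase (0.56 ± 0.07), Sdha of complex II (0.40 ± 0.05) and Cox6c of complex IV (0.43 ± 0.08) were among the higher ones. Ndufv3 of complex I was among the lower ones (-0.47). The interaction was positive for 64 of 74 and negative for none, with a median of 0.65, against 14.6% of all genes called positive. Between genotypes under vehicle, 68 of 74 were called lower in Villin-Cre than in floxed ileum (median -0.48), against 30.7% of all genes. Under GW3965, 37 were called higher and 5 lower (median 0.21), against 13.5 and 38.4% of all genes. Scaled to the median gene, 36 were lower in the vehicle comparison and 62 higher in the GW3965 comparison. With close libraries averaged, where the spread came from the floxed GW3965 group alone, calls could not be judged. The median log2 fold change under GW3965 was then -0.48 in floxed and 0.18 in Villin-Cre ileum.

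Under GW3965 in floxed livers the calls of nuclear and mitochondrial genes differed in sign. There, where 11 mitochondrial mRNAs rose, 29 of the 74 nuclear genes were called lower and 1 higher (median -0.15), against 19.6% and 10.4% of all genes. Ndufs6 (-0.50 ± 0.06) of complex I, Uqcr10 (-0.55 ± 0.07) of complex III and Cox8a (-0.33 ± 0.05) of complex IV were among the lower ones. In Villin-Cre livers 3 of 74 were called lower and none higher (median -0.05), against 9.04 and 2.84% of all genes. Scaled to the median gene, 2 were higher and none lower (median 0.04), and without floxed GW3965 replicate 1, 10 were lower and 2 higher. Between genotypes under vehicle, 66 were lower in Villin-Cre than in floxed livers (median -0.35), among them Ndufb10 (-0.72 ± 0.07) and Sdha (-0.56 ± 0.05), against 11.7% of all genes called lower. Under GW3965, 42 were lower and 1 higher (median -0.23), against 15.0 and 40.8% of all genes, and 71 were lower when scaled to the median gene. The difference in sign between mitochondrial and nuclear genes under GW3965 in floxed livers was not tested as such, and it was the same when scaled to the median gene, with 11 mitochondrial mRNAs higher and 22 nuclear genes lower (2 higher).

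Of 20 genes of mitochondrial RNA processing and stability, 10 were called lower and none higher under GW3965 in Villin-Cre ileum (median log2 fold change -0.25), where 6 were lower when scaled to the median gene, and 13 were called lower and none higher in floxed ileum (median -0.46). Of all genes, 31.1% were called lower in Villin-Cre and 20.9% in floxed ileum. Lrpprc, which binds and stabilises mitochondrial mRNAs, fell in both, at -1.13 ± 0.07 in Villin-Cre (adjusted p = 6.7e-10) and -0.88 ± 0.07 in floxed ileum (adjusted p = 4.3e-08). Rexo2, a mitochondrial oligoribonuclease, had log2 fold changes of -1.80 ± 0.19 in Villin-Cre and -1.002 ± 0.19 in floxed ileum. Also lower in floxed ileum were Tbrg4 (-0.58 ± 0.08), a FASTK family RNA-binding protein, and Pnpt1 (-0.63 ± 0.14), the polynucleotide phosphorylase of mitochondria. Elac2, which cuts the 3′ ends of tRNAs, was called lower in Villin-Cre ileum (-0.65). Lrpprc was also lower in Villin-Cre than in floxed ileum, at -1.21 ± 0.07 under GW3965 and -0.95 ± 0.07 under vehicle. It was thus lowest in Villin-Cre GW3965 ileum. The part of Lrpprc in the levels of the mitochondrial mRNAs was not tested.

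Of 14 genes of transcription and replication of mitochondrial DNA, 1 was called higher and 7 lower under GW3965 in Villin-Cre ileum, and 1 higher and 3 lower in floxed ileum. The lower count in floxed ileum was at the share of all genes (20.9%), and scaled to the median gene 2 were higher and none lower there. Tfam, which packages mitochondrial DNA and starts its transcription, had a log2 fold change of -0.37 ± 0.14 in floxed ileum (adjusted p = 0.043), and Tfb2m, the initiation factor, -0.53 ± 0.18. Polg2, an accessory subunit of the mitochondrial DNA polymerase, was the gene called higher in both genotypes (0.63 in Villin-Cre and 0.39 ± 0.12 in floxed ileum), while the catalytic subunit Polg was lower in Villin-Cre ileum (-0.64 ± 0.09). Polrmt, the mitochondrial RNA polymerase, was lower in Villin-Cre than in floxed ileum under GW3965 (-1.14 ± 0.14) and had an interaction of -0.77. Under vehicle, Tfam (-0.75 ± 0.14) and Tfb2m (-0.99) were lower in Villin-Cre ileum.

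The remaining lists were smaller, and their counts in the ileum stand against 21.4% of all genes called higher and 31.1% lower under GW3965 in Villin-Cre, and 14.6 and 20.9% in floxed mice. Of 9 translation factors, 2 were called higher and 5 lower under GW3965 in Villin-Cre ileum, and 6 lower in floxed ileum, among them Tufm (-0.76 ± 0.09) and Gfm1 (-0.80 ± 0.10). Taco1, a translational activator of mt-Co1, had log2 fold changes of -0.65 under GW3965 in floxed ileum and -0.997 ± 0.17 in Villin-Cre over floxed vehicle ileum, with an interaction of 1.23 ± 0.24 (adjusted p = 0.00081). Of 11 genes of rRNA modification and ribosome assembly, 7 were lower and 1 higher in Villin-Cre ileum under GW3965 and 3 lower in floxed ileum. Tfb1m, which methylates mitochondrial rRNA, had a log2 fold change of -1.16 in Villin-Cre ileum. Of 8 tRNA modification genes, 2 were higher and 3 lower in Villin-Cre ileum, with Pus1 at -0.83, and 1 was lower in floxed ileum (Trmt5, -0.77 ± 0.22). Of 7 regulators of mitochondrial biogenesis, 3 were higher and 3 lower in Villin-Cre ileum, and 1 was higher and 4 lower in floxed ileum. The coactivator Ppargc1a was called higher (0.43 and 0.32 ± 0.09) and its relative Ppargc1b lower (-0.88 and -0.82 ± 0.12) in Villin-Cre and floxed ileum alike, and the nuclear receptor Esrrg was lower in floxed ileum (-1.30 ± 0.27).

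In the liver, where 2.84% of all genes were called higher and 9.04% lower under GW3965 in Villin-Cre and 10.4 and 19.6% in floxed mice, the counts in Villin-Cre livers were 2 lower of 20 processing genes, 1 lower of 7 biogenesis regulators and none of the other lists. In floxed livers 3 of the 20 processing genes were called lower, and among the transcription genes Tfam was lower (-0.34 ± 0.06, adjusted p = 0.0012) and Polg2 higher (0.49), with 1 higher and 2 lower of 14 in all. Of the other lists, 1 gene of rRNA modification was higher, none of tRNA modification passed, 1 translation factor was higher and 3 lower, and 1 biogenesis regulator was higher and 1 lower. Esrrg was lower in Villin-Cre livers (-0.74 ± 0.19, adjusted p = 0.019) and higher in floxed livers (1.37 ± 0.19, adjusted p = 7.6e-05). Between genotypes, processing genes were called higher in Villin-Cre livers, 12 of 20 under GW3965 and 14 of 20 under vehicle, with 1 lower each time. Rexo2 (0.90 ± 0.07 under GW3965, 0.61 under vehicle) and Tbrg4 (0.71 ± 0.06 under vehicle) were among them, and Hsd17b10, a subunit of the ribonuclease that cuts the 5′ ends of tRNAs, was the lower one (-0.83 under GW3965, -0.58 under vehicle). These shares stood against 40.8 and 45.1% of all genes called higher in the same comparisons, and scaled to the median gene only 4 processing genes were higher in each, with 4 lower under GW3965 and 3 under vehicle.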

How the data were processed

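Total RNA was depleted of rRNA with RNase H, copied from random hexamers and sequenced in 24 libraries as 150-base read pairs, per the labels' protocols. The submitters' processing notes name the tools featureCounts (1.4.6-p5), Subread, STAR (2.5.1a) and bcl2fastq and the build GRCm38. They give no annotation release, strand setting, log formula or treatment of reads with several matches, as far as used here. The authors deposited log2 values in 1 table per tissue. Of 40757 rows, 276 were exact repeats and were dropped. Every library had -5.62 as its lowest value, from which CPM and whole reads were computed back (100% of low values within 0.05 of a whole read). Tests used limma (version 3.58.1, R 4.3.3) on log2(CPM + 0.5), which understates the fold changes of low genes. Each tissue was fitted on its own, with 12 libraries, 1 mean for every group and a trended prior variance. A gene needed 0.5 CPM in 3 libraries (18656 genes of the ileum and 17551 of the liver did), and p-values were adjusted over all of these by Benjamini-Hochberg, with 0.05 as the threshold. The fit was tested on simulated data with known changes. These were drawn as independent libraries, without close or outlying ones, so the test does not cover those features of the data. Nuclear copies were sought with blastn 2.17.0 in the GENCODE M21 transcripts (at least 90% identity over 100 bases). Every mitochondrial mRNA and rRNA is named, tRNAs where they passed the filter, and up to 4 genes of a list with the smallest p per comparison. Members and lists were chosen with earlier results of these data known. The alternatives changed the scaling (median of gene ratios, or a read total without rRNA rows), the filter (none), the groups in the fit, the pseudocount (2), the scale (log2 values as deposited, or voom weights), blocked on replicate number, left out single libraries, or averaged close ones (variance under 4 times that of counting).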

Additional observations from a re-analysis of the deposited data

Results flagged for a closer look

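The effect of GW3965 differed between genotypes, by limma's interaction term with an adjusted p under 0.05, for 14 mitochondrial RNAs of the ileum. Villin-Cre minus floxed, the difference in log2 fold change was 0.60 for mt-Nd1, 0.63 for mt-Nd2, 0.65 for mt-Nd3, 0.53 for mt-Nd4, 1.18 for mt-Nd4l, 0.58 for mt-Nd5 and 0.66 for mt-Nd6. It was 0.76 for mt-Cytb, 1.05 for mt-Co1, 0.76 for mt-Co2, 0.86 for mt-Co3, 0.81 for mt-Atp6, 1.31 for mt-Atp8 and 1.12 for mt-Tp.

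In the liver the same term was negative and passed for 12 RNAs. It was -0.62 for mt-Nd2, -0.69 for mt-Nd3, -0.63 for mt-Nd4, -0.71 for mt-Nd5, -0.77 for mt-Nd6 and -0.70 for mt-Cytb. It was -0.62 for mt-Co2, -0.54 for mt-Co3, -0.63 for mt-Atp6, -0.76 for mt-Atp8, -1.55 for mt-Tp and -1.82 for mt-Rnr2.

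For some RNAs every GW3965 library lay below every vehicle library in one tissue and above them in the other, and this difference between tissues was not tested. In floxed mice the log2 fold changes in ileum and liver were -1.01 and 0.52 for mt-Nd2, -0.82 and 0.57 for mt-Nd3, -0.91 and 0.46 for mt-Nd4l, -0.51 and 0.45 for mt-Nd5 and -0.59 and 0.73 for mt-Nd6. They were -0.75 and 0.51 for mt-Cytb, -0.62 and 0.32 for mt-Co3, -0.71 and 0.41 for mt-Atp6, -1.11 and 0.62 for mt-Atp8 and -0.68 and 0.69 for mt-Tp. In Villin-Cre mice they were 0.26 and -0.30 for mt-Co2 and 0.45 and -0.86 for mt-Tp.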

How the results depend on the processing

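Averaging close libraries of a group left 0 of the 13 mRNAs called in every comparison. In the order floxed GW3965, Villin-Cre GW3965, vehicle genotype, GW3965 genotype and interaction, 10, 0, 6, 0 and 5 mRNAs of the ileum then had an unadjusted p under 0.05 in limma's test, and 1, 0, 1, 2 and 0 of the liver. Of all genes, 192, 1466, 21, 1237 and 14 were then called in the ileum and 5, 0, 178, 1621 and 0 in the liver (211 and 508 at an unadjusted p under 0.05 where the count was 0). The design has 1 unit in most groups under this setting, so fewer units enter the fit.

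Without the filter on low values the mRNAs called were 0 in Villin-Cre ileum under GW3965 (3 at an unadjusted p under 0.05), 1 in the GW3965 genotype comparison and 6 for the interaction of the ileum, and 4 in floxed liver under GW3965, 1 in the vehicle genotype comparison and 1 for the interaction of the liver. All genes called were then 1205 for Villin-Cre GW3965 and 2254 for the interaction in the liver. Fitting only the groups compared called 3 mRNAs in the GW3965 genotype comparison of the ileum, 5 in floxed liver under GW3965 (3448 of all genes), 8 in Villin-Cre liver (4820 of all genes) and 8 between genotypes in vehicle livers. This fit cannot be made for the interaction. The median of gene ratios called 7 in the last of these. The cause of these changes was not tested.

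Under the median of gene ratios 13 single values turned sign. Of these, 11 passed under neither scaling, and 2 passed after turning, mt-Nd4 between genotypes in GW3965 ileum, at 0.28 (adjusted p = 0.0036), and mt-Nd1 between genotypes in vehicle livers, at -0.27 (adjusted p = 0.036). That scaling also changed the split of all genes called. For Villin-Cre over floxed mice it gave 3751 higher and 2733 lower, in place of 1795 and 5733, in vehicle ileum, and 4778 and 4397 in place of 2523 and 7157 in GW3965 ileum. In livers it gave 3797 and 3896 in place of 7910 and 2056 under vehicle, and 4582 and 4354 in place of 7161 and 2636 under GW3965. For GW3965 over vehicle it gave 3350 and 2918 in place of 2725 and 3907 in floxed ileum, 932 and 626 in place of 498 and 1586 in Villin-Cre liver, and 2343 and 2889 in place of 1818 and 3447 in floxed liver.

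Leaving out single libraries gave 12 to 13 mRNAs called in floxed ileum and 3 to 6 in Villin-Cre ileum under GW3965, 12 to 13 between genotypes in vehicle ileum, 2 to 7 in GW3965 ileum and 12 to 13 for the interaction. In the liver the ranges were 7 to 13, 0 to 7, 1 to 7, 8 to 13 and 9 to 13 in this order. All genes called ranged over 5447 to 7359, 8792 to 10723, 6340 to 8757, 8624 to 10313 and 5415 to 7247 in the ileum, and 4193 to 6817, 1086 to 4655, 8945 to 11219, 8905 to 10381 and 2676 to 5726 in the liver. In vehicle livers 7 mRNAs passed between genotypes without floxed GW3965 replicate 1 and 1 without floxed vehicle replicate 2 or Villin-Cre vehicle replicate 1.

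With the replicate number as a block, 5 mRNAs were called in Villin-Cre ileum under GW3965, and the count was unchanged in the other 9 comparisons. Libraries with the same number in different groups of a tissue did not deviate together (median correlation 0.007 in the ileum and 0.001 in the liver). Ileum was not set against liver in this way, so pairing between tissues was not assessed.

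Group means of the mRNA share with each library left out ranged over 2.94 to 3.18, 2.45 to 2.67, 2.54 to 2.88 and 3.81 to 4.21% in the ileum (Villin-Cre GW3965, Villin-Cre vehicle, floxed GW3965, floxed vehicle) and 1.90 to 1.97, 2.10 to 2.15, 2.54 to 2.99 and 2.10 to 2.18% in the liver. For the rRNAs they were 0.136 to 0.183, 0.0896 to 0.124, 0.0765 to 0.102 and 0.0598 to 0.0724% in the ileum and 0.0512 to 0.112, 0.0307 to 0.0458, 0.106 to 0.124 and 0.0157 to 0.0194% in the liver. For the tRNAs they were 0.000720 to 0.000823, 0.000523 to 0.000703, 0.000474 to 0.000529 and 0.000714 to 0.000875% in the ileum and 0.000463 to 0.000479, 0.000831 to 0.000995, 0.000568 to 0.000765 and 0.000384 to 0.000487% in the liver. With rRNA rows left out of the read total, the mRNA share was 2.93% in Villin-Cre vehicle ileum, 4.53% in floxed vehicle ileum, 2.05% in Villin-Cre GW3965 liver and 2.24% in Villin-Cre vehicle liver, and the tRNA share 0.000498% in Villin-Cre GW3965 liver, which moved by more than 1 SD because the total is smaller.

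Of 3597 single values under all alternatives, 3138 kept their direction and side of the threshold, 65 turned sign but passed neither before nor after, 304 no longer passed, 88 passed only there and 2 turned sign and passed. Depth limits the tRNAs: mt-Tp stayed under 10 CPM in every library, and the other tRNA genes, except mt-Tn of the ileum, did not pass the filter and were not tested.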
